A study of Mus musculus with 48 samples.

Results

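The NRF2 oxidative stress genes described here are 10 genes: the transcription factor gene Nfe2l2, which encodes NRF2, its inhibitor Keap1, and the target genes Slc7a11, Gclc, Gclm, Txnrd1, Srxn1, Nqo1, Hmox1 and G6pdx. They were chosen by name, as members of a known pathway, with earlier results of these data known. All 10 were found among the 36854 genes of the count table. Nqo1 drew attention to the pathway because its level was higher with anti-PD-1 after 20 Gy in primary tumours. That contrast is therefore given below as a description with no test for any member, and Nqo1 is not tested in any comparison that holds 20 Gy primary tumours.

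NRF2 is a transcription factor that pairs with small MAF proteins and binds antioxidant response elements. KEAP1 holds NRF2 in the cytoplasm and brings it to a CUL3 ubiquitin ligase, so that NRF2 is degraded until oxidants or electrophiles modify KEAP1. Control is mainly at the level of the protein, and the messenger RNA of Nfe2l2 need not change when its targets do. The targets supply glutathione and thioredoxin, reduce quinones, degrade haem and make NADPH, and the pathway is known for persistent activity in some tumours.

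All 10 are protein-coding genes, placed here in mm10. The regulators are Nfe2l2 (ENSMUSG00000015839) at chr2:75675513-75704641 on the minus strand and Keap1 (ENSMUSG00000003308) at chr9:21229730-21239361 on the minus strand. The glutathione genes are Slc7a11 (ENSMUSG00000027737) at chr3:49892526-50443614 on the minus strand, Gclc (ENSMUSG00000032350) at chr9:77754535-77794485 on the plus strand and Gclm (ENSMUSG00000028124) at chr3:122245557-122270732 on the plus strand. The thioredoxin genes are Txnrd1 (ENSMUSG00000020250) at chr10:82833951-82897712 on the plus strand and Srxn1 (ENSMUSG00000032802) at chr2:152105516-152111376 on the plus strand. The quinone and haem enzymes are Nqo1 (ENSMUSG00000003849) at chr8:107388225-107403206 on the minus strand and Hmox1 (ENSMUSG00000005413) at chr8:75093621-75100589 on the plus strand. The NADPH gene is G6pdx (ENSMUSG00000031400) at chrX:74409483-74429194 on the minus strand.

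The study measured RNA of whole mouse sarcomas by bulk sequencing, in 48 tumours of 129/SvJae background. Primary tumours arose in the leg muscle of p53FL/FL mice aged 6 to 10 weeks, after local Adeno-Cre, which deletes p53 at the injection site, and the carcinogen MCA. Allografts were grown in syngeneic mice from cells of 1 line, 402230, so all allografts share that origin. Each mouse received muDX400, a mouse anti-PD-1 antibody, or an isotype control antibody, was given 0 or 20 Gy to the hind limb, and its tumour was harvested on day 3. Each of the 4 combinations of dose and antibody held 4 allografts and 8 primary tumours. The tumours are separate samples by their labels, and it is not said whether any came from 1 mouse or 1 culture, so p-values measure the spread between these samples. Libraries held 31.8 to 54 M counts (mega counts; median 41.2 M), and levels are in CPM, that is, counts relative to library size after TMM scaling over all 48 tumours. All 6 sarcoma and mesenchymal markers (Vim, Col1a1, Col3a1, Pdgfra, Pdgfrb and Thy1) were above 1 CPM in every tumour. Trp53, the gene deleted to start the primary tumours, was at 20.2 to 60.7 CPM over the 48 tumours. A count over the whole gene in a tissue that also holds host cells checks no label.

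Levels are compared between genes only per kilobase of the summed exons. In the 32 primary tumours the highest mean was that of Hmox1, the haem oxygenase gene, with 76.7 CPM per kilobase, followed by Srxn1, which encodes sulfiredoxin, with 53.98 and Nfe2l2 with 38.3. In the 16 allografts Hmox1 and Nqo1 both had a mean of 83.1 CPM per kilobase and Srxn1 63.7, while Nqo1 had 10.2 in the primary tumours. Slc7a11, the cystine transporter that feeds glutathione synthesis, was lowest in both kinds, with 2.26 and 0.89 CPM per kilobase. The members also differed in how far they varied: the highest tumour was 54.3 times the lowest for Nqo1, the NADPH quinone dehydrogenase gene, and 29.7 times for Slc7a11. For Keap1 that ratio was 2.21 and for Nfe2l2 it was 2.25, so both regulators were the least variable of the 10 members.

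**Figure D1:**
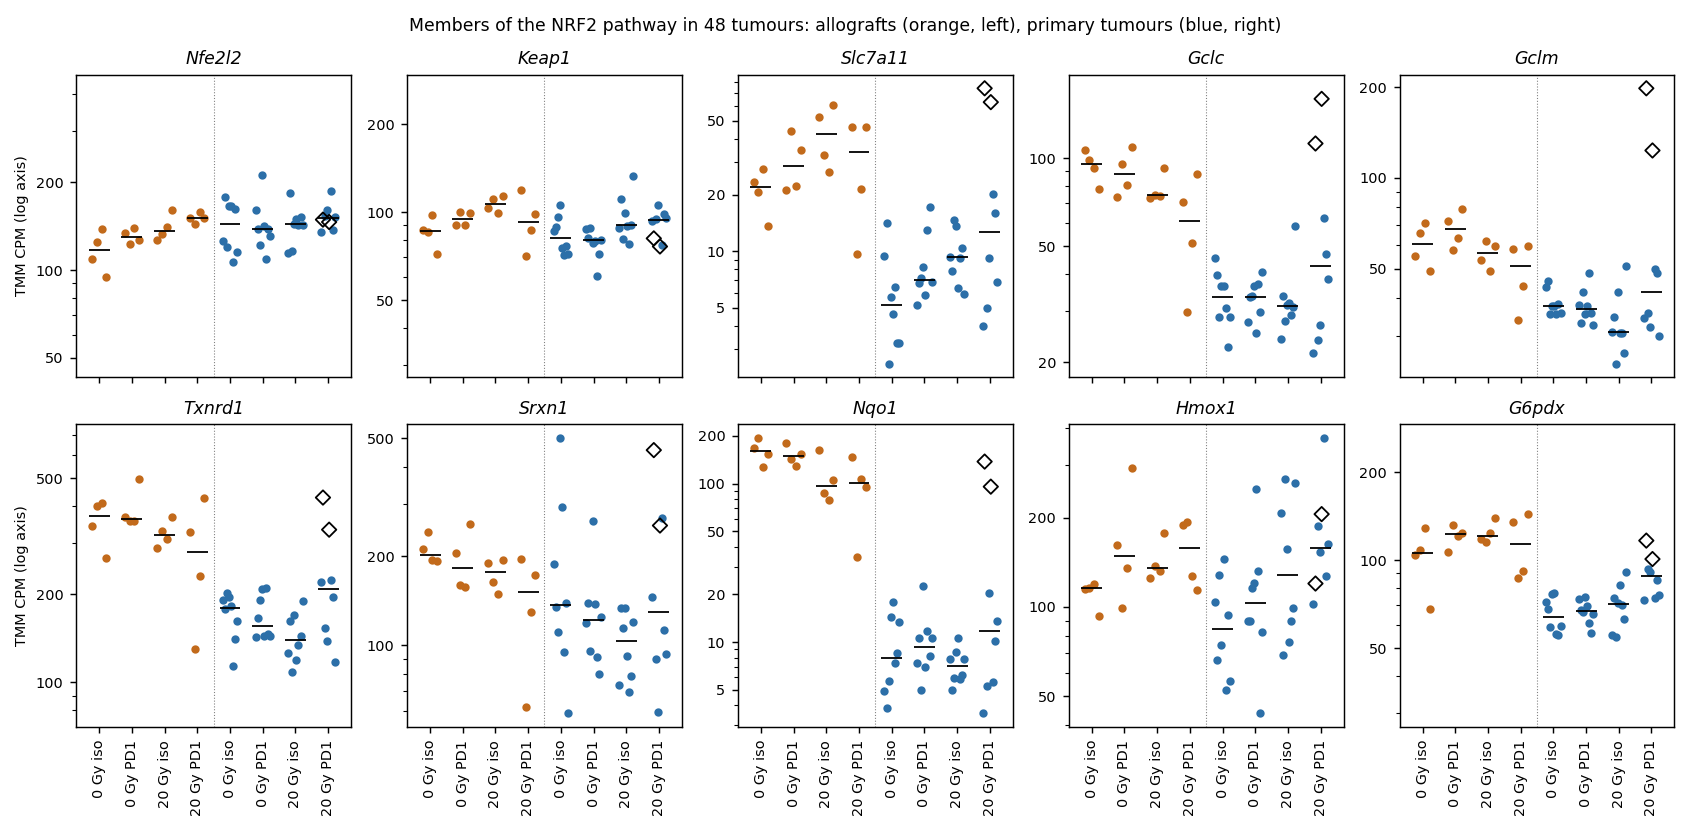
Level of each member in every tumour, in CPM on a log axis, by group, with allografts (orange, 4 per group) left of the dotted line and primary tumours (blue, 8 per group) right of it. Bars are group medians, and open diamonds are replicates 2 and 5 of the 20 Gy anti-PD-1 primary group, which lie far above the other primary tumours for Slc7a11, Gclc, Gclm, Txnrd1 and Nqo1 but not for Nfe2l2, Keap1 or Hmox1.

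Promoter sequence was available from RefSeq (GRCm38.p6, the mm10 build) for 8 of the 10 members, with 10 start sites in all, each from 250 bases before to 50 bases after the start. The core of the antioxidant response element, TGACNNNGC, was searched on both strands and found in 5 of these 8 members: Nfe2l2, Gclm, Txnrd1, Srxn1 and G6pdx. It was also found in 12.4% of all 32851 promoters of this length. That share counts single windows, whereas the members are counted by gene, and Txnrd1 had more than 1 window. The related AP-1 letters, TGANTCA, which can overlap the core, occurred in 1 member, Srxn1, at 2 places, and in 7.81% of all promoters. Windows of 4 of the genes that were high together in the same tumours (below) are shown 5′ to 3′ along the gene, with the matched core in capitals. Each match shown reads on the opposite strand. The window of Slc7a11, also high in those tumours, held no match and is not shown. Txnrd1 had 3 start sites, and the window with a match is shown. The windows lie at chr3:122245307-122245606 on the plus strand for Gclm, chr10:82858956-82859255 on the plus strand for Txnrd1, chrX:74428831-74429130 on the minus strand for G6pdx and chr8:107403156-107403455 on the minus strand for Nqo1.
Gclm: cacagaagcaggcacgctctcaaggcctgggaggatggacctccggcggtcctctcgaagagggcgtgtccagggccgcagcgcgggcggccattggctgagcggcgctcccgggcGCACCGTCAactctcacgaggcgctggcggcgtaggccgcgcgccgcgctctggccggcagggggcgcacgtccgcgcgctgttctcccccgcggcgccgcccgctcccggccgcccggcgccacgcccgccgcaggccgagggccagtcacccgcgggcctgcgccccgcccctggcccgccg
Txnrd1: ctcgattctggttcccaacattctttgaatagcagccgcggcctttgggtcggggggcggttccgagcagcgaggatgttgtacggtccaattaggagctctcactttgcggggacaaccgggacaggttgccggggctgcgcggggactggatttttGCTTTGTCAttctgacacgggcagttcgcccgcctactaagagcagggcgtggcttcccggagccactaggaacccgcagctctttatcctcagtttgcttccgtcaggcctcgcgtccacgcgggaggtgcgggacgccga
G6pdx: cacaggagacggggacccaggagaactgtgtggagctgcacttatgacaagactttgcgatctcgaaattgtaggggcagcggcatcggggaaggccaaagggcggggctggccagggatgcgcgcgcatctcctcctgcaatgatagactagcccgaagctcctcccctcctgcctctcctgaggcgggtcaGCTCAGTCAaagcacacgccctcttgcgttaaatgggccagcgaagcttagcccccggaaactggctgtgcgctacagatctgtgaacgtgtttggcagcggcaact
Nqo1: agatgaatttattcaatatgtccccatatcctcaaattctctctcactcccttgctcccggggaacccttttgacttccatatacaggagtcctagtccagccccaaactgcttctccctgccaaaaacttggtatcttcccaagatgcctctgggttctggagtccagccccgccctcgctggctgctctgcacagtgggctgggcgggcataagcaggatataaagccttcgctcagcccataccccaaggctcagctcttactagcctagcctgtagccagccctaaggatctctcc
The match lay before the start in all 3 windows that hold one, nearest in G6pdx, at 57 bases, then in Txnrd1, at 92 bases. The Nqo1 window, which belongs to the most variable member, held neither set of letters, and the same was true of the Slc7a11 and Keap1 windows. A match describes the letters only, and its absence concerns this window only.

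Unirradiated tumours with isotype antibody give the level before treatment, and here 6 of the 8 targets chosen were lower in primary tumours than in allografts. Of the 10 members, 6 were lower in the 8 primary tumours than in the 4 allografts and 0 were higher, in a comparison in which 3.99% of the 17357 genes tested were lower, 6.03% were higher and 10% changed in either direction (edgeR quasi-likelihood test, Benjamini-Hochberg adjustment over all genes). The members' median log2 fold change was -0.65, against 0.01 over all genes tested. Neither Nfe2l2 nor Keap1 was among the 6.

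Nqo1 showed the widest gap. Its allograft levels were 166.6, 193.1, 126.9 and 153.4 CPM. Its primary levels ran from 3.86 to 18.0 with a median of 7.98 CPM. Each primary tumour lay below every allograft, and the level was 16.9-fold lower (log2 fold change -4.08, SE 0.36, adjusted p = 9.9e-05). Over all treatments the separation remained wide: 30 of the 32 primary tumours were below the lowest of the 16 allografts, which had 34.6 CPM.

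The glutathione genes were lower as well. Gclc encodes the catalytic subunit of glutamate-cysteine ligase, the enzyme that limits glutathione synthesis. It had 106.96, 98.9, 92.8 and 78.6 CPM in the allografts and 22.6 to 45.3 CPM (median 33.5) in the primary tumours. The groups did not overlap, and the level was 2.83-fold lower (log2 fold change -1.50, SE 0.15, adjusted p = 0.000225). Gclm, the modifier subunit of the same enzyme, had 55.3, 65.5, 70.8 and 49.2 CPM in the allografts and 35.4 to 45.7 CPM (median 37.6) in the primary tumours. These groups did not overlap either, with a smaller log2 fold change of -0.65 (SE 0.11, adjusted p = 0.00433). Slc7a11 had 23.5, 20.9, 27.4 and 13.6 CPM in the allografts and 2.51 to 14.2 CPM (median 5.14) in the primary tumours. Here 7 of the 8 primary tumours were below every allograft, and the log2 fold change was -1.80 (SE 0.40, adjusted p = 0.0137).

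Txnrd1, the cytosolic thioredoxin reductase gene, and G6pdx, the X-linked gene for the first enzyme of the pentose phosphate pathway, were also lower. Txnrd1 had 343.0, 400.4, 410.1 and 266.4 CPM in the allografts and 113.7 to 202.4 CPM (median 180.0) in the primary tumours, with no overlap and a log2 fold change of -1.06 (SE 0.16, adjusted p = 0.00178). G6pdx had 103.9, 108.5, 128.8 and 68.2 CPM in the allografts and 55.3 to 77.1 CPM (median 63.8) in the primary tumours. Only 5 of 8 primary tumours were below every allograft for G6pdx, and its log2 fold change was -0.65 (SE 0.15, adjusted p = 0.0167). Without allograft replicate 2 or 3, or with all 48 tumours in 1 fit, 5 members were called: the call on G6pdx was lost without either allograft and that on Gclm in the joint fit.

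The other 4 members did not pass the test. Srxn1, which restores oxidised peroxiredoxins, had a log2 fold change of -0.16 (SE 0.45), and its primary levels spread from 58.9 to 500.7 CPM, on both sides of the allografts at 193.0 to 241.7 CPM. Hmox1 had a log2 fold change of -0.31 (SE 0.25), with 4 of 8 primary tumours below every allograft and 2 above. Keap1 had -0.03 (SE 0.13) and Nfe2l2 0.28 (SE 0.16).

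**Figure D2:**
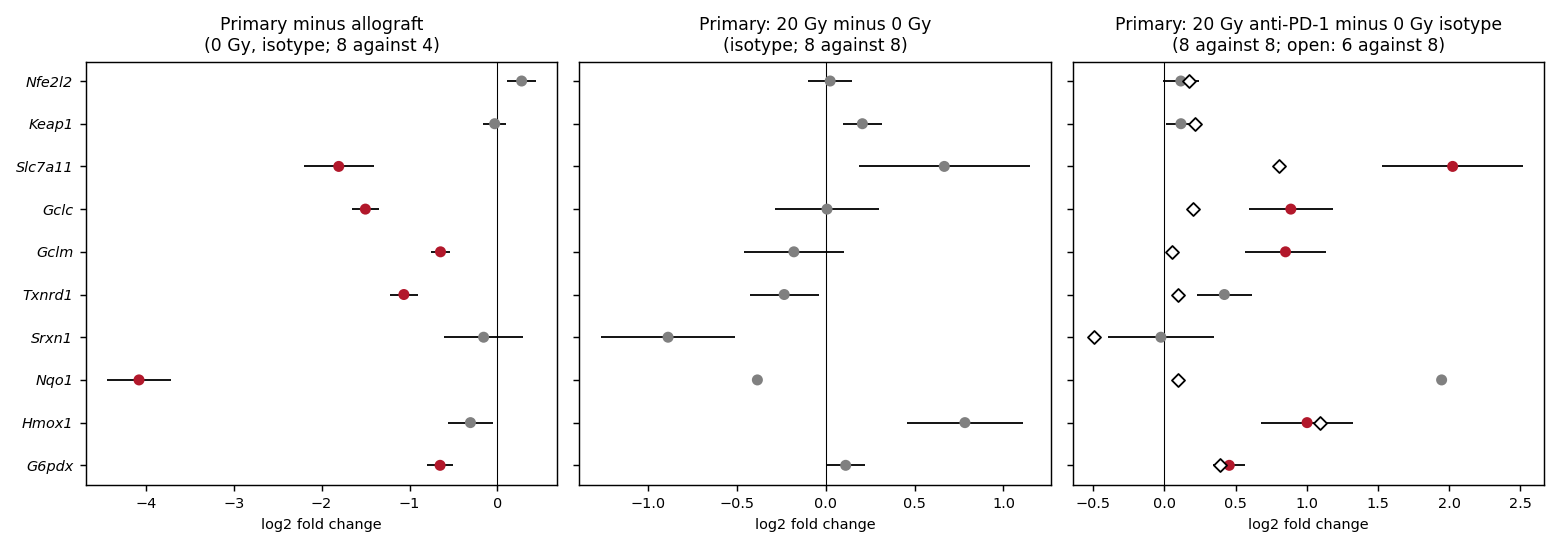
Log2 fold change of each member in 3 comparisons, with bars of 1 SE, in red where the adjusted p was below 0.05 and grey otherwise; Nqo1 has no bar where it was not tested. Open diamonds on the right show the values without replicates 2 and 5 of the 20 Gy anti-PD-1 group, with no bars: those of Slc7a11, Gclc and Gclm move towards 0 and those of Hmox1 and G6pdx stay near the values with all tumours.

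Among 42 other genes of the pathway, 41 passed the filter on low counts, and 10 of these were lower in the primary tumours and 0 were higher, where 3.99% of all genes were lower and 6.03% higher. They came from 5 of the 6 lists: 3 from glutathione synthesis and use, 2 each from the thioredoxin genes, haem and iron handling and detoxification, and 1 from NADPH supply. The list of NRF2 regulators and partners had 0. Slc48a1, a haem transporter, had a mean of 68.1 ± 9.05 CPM (SD, n = 8) against 216.0 ± 20.5 CPM (SD, n = 4) and a log2 fold change of -1.67 (SE 0.12, adjusted p = 4.25e-05). Mgst1, a microsomal glutathione transferase, had a log2 fold change of -2.88 (SE 0.40) and Ftl1, the ferritin light chain, -0.72 (SE 0.15). The lower levels thus included genes outside the 10 members, with no member of the regulator list called. Of the 10 pathway genes that were lower, Slc48a1, Mgst1, Ftl1 and Gstm1 kept their calls in all 19 alternatives, and the other 6 in 7 to 16, with Pgd and Cbr3 at 7.

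Other things differed between these groups. Of 6 T cell markers, 4 were lower in the primary tumours, as were 2 of 6 neutrophil and monocyte markers, and 1 sarcoma and 1 macrophage marker were higher. Of 6 skeletal muscle markers 0 were called, with a median log2 fold change of -2.04. Their sum ran from 52.0 to 4965 CPM in the primary tumours and from 64.3 to 16823 CPM in the allografts. The summed T cell markers ran from 13.0 to 56.0 CPM in the primary tumours and from 39.8 to 88.1 CPM in the allografts, and the part of these cells in the result was not tested. In whole tumours, fewer cells of a type and less RNA per cell cannot be told apart. The animal identifiers in the labels began with 5 for 4 of 4 allografts and 0 of 8 primary tumours. Whatever that digit marks and the kind of tumour thus cannot be told apart in these 2 groups. With 0 Gy and anti-PD-1 the digit was 5 for 3 of 4 allografts and 1 of 8 primary tumours. The kind of tumour and the single allograft line cannot be told apart either. Reads of G6pdx and of Ikbkg, which overlap on opposite strands, cannot be told apart unless counting used the strand, which the sources used here do not state; Ikbkg had a log2 fold change of -0.07 (SE 0.11).

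In allografts, irradiation left all 10 members without a call. With isotype antibody, 20 Gy against 0 Gy gave 0 of 10 members, where 5.14% of the 17746 genes tested were called (4.4% higher, 0.744% lower). With anti-PD-1 it gave 0 of 10, where 3.96% were called (3.13% higher, 0.828% lower; edgeR, adjusted p below 0.05). With isotype, every irradiated tumour was above every unirradiated one for Keap1 and Hmox1. How many of all genes separated the doses in this way was not counted. Keap1 had 87.1, 85.6, 97.8 and 71.9 CPM at 0 Gy and 103.5, 110.5, 99.4 and 113.3 CPM at 20 Gy with isotype, and Hmox1 had 114.8, 116.1, 119.6 and 93.4 CPM against 124.9, 137.6, 132.4 and 178.1 CPM. Neither passed, with log2 fold changes of 0.34 (SE 0.15, adjusted p = 0.237) for Keap1 and 0.40 (SE 0.27, adjusted p = 0.485) for Hmox1. With anti-PD-1 neither gene separated the doses in this way, but Nfe2l2 did, with 133.98, 123.2, 139.4 and 126.4 CPM at 0 Gy and 151.0, 144.2, 158.5 and 151.1 CPM at 20 Gy (log2 fold change 0.23, SE 0.13, adjusted p = 0.358).

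Slc7a11 and Nqo1 had log2 fold changes of opposite sign in the irradiated isotype allografts, and neither passed. Slc7a11 was at 13.6 to 27.4 CPM at 0 Gy and at 52.4, 32.6, 26.7 and 60.7 CPM at 20 Gy, with a log2 fold change of 1.04 (SE 0.44, adjusted p = 0.216). Nqo1 had 163.4, 86.5, 78.7 and 105.3 CPM at 20 Gy, with 3 of 4 below every unirradiated tumour, and a log2 fold change of -0.54 (SE 0.32, adjusted p = 0.413). Nfe2l2 had 126.3, 132.5, 140.03 and 160.5 CPM at 20 Gy against 109.5, 125.2, 138.04 and 94.4 CPM, with a log2 fold change of 0.29 (SE 0.13, adjusted p = 0.250).

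When 20 Gy with anti-PD-1 was set against 0 Gy with isotype, 0 of 10 members were called, where 9.66% of genes were (7.43% higher, 2.23% lower). Nfe2l2 came closest, with 151.0, 144.2, 158.5 and 151.1 CPM, all above the 4 untreated tumours, and a log2 fold change of 0.37 (SE 0.13, adjusted p = 0.0840). DESeq2 called it, as did edgeR without replicate 3 of the untreated group, and without replicate 4 of the treated group Gclc was called in its place. Anti-PD-1 against isotype gave 0 members called at 0 Gy and at 20 Gy, where 0% of the genes were called (299 and 682 had an unadjusted p under 0.05; DESeq2 called 0 in both). The interaction of dose and antibody gave 0 members, where 0% of genes were called and 269 had an unadjusted p under 0.05.

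Of the other pathway genes, Sesn2 and Mafk rose and Idh1 fell with 20 Gy in allografts under each antibody. Mafk, a small MAF partner of NRF2, had log2 fold changes of 0.84 (SE 0.14) with isotype and 0.57 (SE 0.14) with anti-PD-1. Sesn2, a stress-induced sestrin that is also a target of p53, had 1.14 (SE 0.17) and 0.93 (SE 0.17), and Idh1, the cytosolic isocitrate dehydrogenase, had -0.64 (SE 0.14) and -0.68 (SE 0.14). These were the only 3 of 41 called in either comparison, where 5.14% of all genes were called with isotype and 3.96% with anti-PD-1, and the call on Mafk with anti-PD-1 held in 7 of the 16 alternatives run for it. The macrophage markers moved with dose: with isotype their sum was 555.4 to 976.7 CPM at 0 Gy and 1139.9 to 1350.2 CPM at 20 Gy, and with anti-PD-1 the sums overlapped, at 439.1 to 1265 CPM and 1205.7 to 2128 CPM. The neutrophil and monocyte markers summed to 219.2 to 456.9 CPM and 530.1 to 796.3 CPM with isotype, and to 175.1 to 932.2 CPM and 539.5 to 1098 CPM, again overlapping, with anti-PD-1. Of single markers, 2 of 6 macrophage markers were higher under each antibody, 1 of 6 neutrophil and monocyte markers with isotype and 2 with anti-PD-1, and 1 of 5 endothelial markers with isotype. The part of these cells in the results was not tested. Xist was above 10 CPM in 1 of 4 tumours of each unirradiated group and in 3 of 4 of each irradiated group. With this as a term 0 members were called as before. Identifiers began with 5 in 4 of 4 unirradiated and 1 of 4 irradiated isotype allografts, and in 3 of 4 of each anti-PD-1 group. With isotype that digit and dose were thus partly confounded. With the digit as a term 0 members and 196 genes were called with isotype, where 912 genes were called without it. The isotype call on Mafk held in all 16 alternatives, that on Sesn2 in 15 and that on Idh1 in 12.

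A single allograft had low levels of most targets. Replicate 2 of the 20 Gy anti-PD-1 allografts was the lowest of all 16 allografts for 7 of the 10 members, Keap1, Slc7a11, Gclc, Gclm, Txnrd1, Srxn1 and Nqo1, and it was picked out after its values were seen. It was also the lowest of 16 for 20.1% of 19327 genes. Its Nqo1 level was 34.6 CPM where the next lowest allograft had 78.7, its Txnrd1 level 129.7 where the next had 230.5, and its Gclc level 29.8 where the next had 51.1. Hmox1, at 192.6 CPM, was instead the second highest of the 16. In the same tumour the macrophage markers summed to 2128 CPM, above the other 15 at 439.1 to 1400 CPM, and the T cell markers, at 174.3 CPM, and the neutrophil and monocyte markers, at 1075 CPM, were second highest of 16. Its sarcoma and mesenchymal markers, at 6079 CPM, ranked 3 of 16 from the lowest, where the others had a median of 11487 CPM. The part of its cell mixture in these levels was not tested.

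In primary tumours with isotype antibody, 20 Gy changed 0 of the 9 members read, where 14.5% of the 17770 genes tested were called (7.85% higher, 6.64% lower). Hmox1 had the largest log2 fold change above 0, with 52.5 to 144.9 CPM (median 84.4) at 0 Gy and 68.8 to 270.2 CPM (median 127.7) at 20 Gy. The ranges overlapped, with 4 of 8 irradiated tumours above every unirradiated one (log2 fold change 0.78, SE 0.32, adjusted p = 0.103). Without replicate 2 of the irradiated group Hmox1 was called. Srxn1 had a log2 fold change of -0.89 (SE 0.38, adjusted p = 0.114), and its 0 Gy group held the highest level of all tumours, 500.7 CPM. Slc7a11 had 0.67 (SE 0.48) and the other members tested were between -0.23 and 0.21. Nqo1, not tested here, was at 3.86 to 18.0 CPM (median 7.98) at 0 Gy and 4.99 to 10.6 CPM (median 7.04) at 20 Gy.

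Of the other pathway genes, 5 of 41 rose and 6 fell in that comparison, where 7.85% of all genes were higher and 6.64% lower, and a difference between these genes and the members was not tested. Mafk rose with a log2 fold change of 0.56 (SE 0.13), as did Ephx1, the microsomal epoxide hydrolase, with 1.48 (SE 0.39), and Fth1, the ferritin heavy chain, with 0.93 (SE 0.25). Idh1 fell by 0.86 (SE 0.17), Akr1b8, an aldo-keto reductase, by 0.80 (SE 0.23) and Tkt, the transketolase of the pentose phosphate pathway, by 0.49 (SE 0.14), all on the log2 scale. In the same comparison 3 of 6 macrophage markers and 3 of 6 neutrophil and monocyte markers were higher, and 1 of 6 sarcoma and mesenchymal markers was lower. Of 6 skeletal muscle markers 0 were called, with a median log2 fold change of 2.20. Their sum ran from 52.0 to 4965 CPM at 0 Gy and from 244.7 to 39187 CPM at 20 Gy. The sum of the neutrophil and monocyte markers ran from 75.8 to 264.0 CPM at 0 Gy and from 162.8 to 1163 CPM at 20 Gy. The part of any of these cells in the changes was not tested. The difference of the dose effect between primary tumours and allografts gave 0 of 9 members, where 0.00517% of 19327 genes were called.

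Anti-PD-1 alone left the members of unirradiated primary tumours without a call, 0 of 10, where 0% of genes were called (412 had an unadjusted p under 0.05, and DESeq2 called 3). Nqo1, tested here, was at 5.0 to 22.4 CPM (median 9.38) with anti-PD-1 against 3.86 to 18.0 CPM (median 7.98), with a log2 fold change of 0.12 (SE 0.55). Slc7a11 had 0.52 (SE 0.48), Srxn1 -0.53 (SE 0.38) and Hmox1 0.36 (SE 0.32).

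Anti-PD-1 after 20 Gy in primary tumours is the contrast that brought the pathway to notice, and its values are a description. Nqo1 was at 4.99 to 10.6 CPM in the 8 isotype tumours. In the 8 anti-PD-1 tumours it was at 3.56, 5.31, 5.60, 10.1, 13.6, 20.4, 95.6 and 137.5 CPM. The 2 highest values belonged to replicates 5 and 2, and of the other 6 tumours 3 lay within the isotype range, 1 below it and 2 above it. The log2 fold change was 2.33 with all tumours and 0.44 without these 2. In this comparison 0% of 17770 genes were called (1443 had an unadjusted p under 0.05, and DESeq2 called 1).

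The same 2 tumours, singled out after their values were seen, stood above the other 30 primary tumours for 6 of the 10 members. Nqo1 is among the 6 and its values in these tumours chose the pathway, so it adds nothing to the count. Of the other 9 members both were above the other 30 for 5, against 4 of the 42 other pathway genes and 0.662% of 19327 genes, a description with no test. Slc7a11 had 74.4 CPM in replicate 2 and 62.8 CPM in replicate 5, against a highest value of 20.2 and a median of 7.01 CPM in the other 30. Gclc had 112.2 and 159.6 CPM, against at most 62.3 and a median of 31.7 CPM. Both subunits of glutamate-cysteine ligase were thus high in both tumours, since Gclm had 198.0 and 123.3 CPM against at most 51.1 and a median of 35.6 CPM.

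Txnrd1 was at 428.8 and 332.9 CPM in replicates 2 and 5, and at most at 223.8 CPM in the other 30. G6pdx was at 116.6 and 100.8 CPM, close to the 92.9 CPM of the next tumour. Relative to the median of the other 30, the levels in replicates 2 and 5 were 17.5 and 12.2 times as high for Nqo1, 10.6 and 8.95 times for Slc7a11 and 1.65 and 1.43 times for G6pdx. Srxn1 ranked second and sixth of 32, with 456.3 and 253.9 CPM. The 4 other pathway genes highest in both tumours were Aox1, an aldehyde oxidase, Pgd, the NADPH-making enzyme after G6pdx, Slc48a1 and Abcc1, an exporter of glutathione conjugates.

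The regulators and Hmox1 did not share this pattern. Nfe2l2 was at 148.8 and 146.0 CPM in the 2 tumours, ranks 14 and 15 of 32, and Keap1 was at 81.3 and 76.3 CPM, ranks 19 and 27. Hmox1, at 119.9 and 205.5 CPM, ranked 16 and 6. The highest Hmox1 level in that group, 370.3 CPM, was in replicate 6, whose Nqo1 level was 5.60 CPM.

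**Figure D3:**
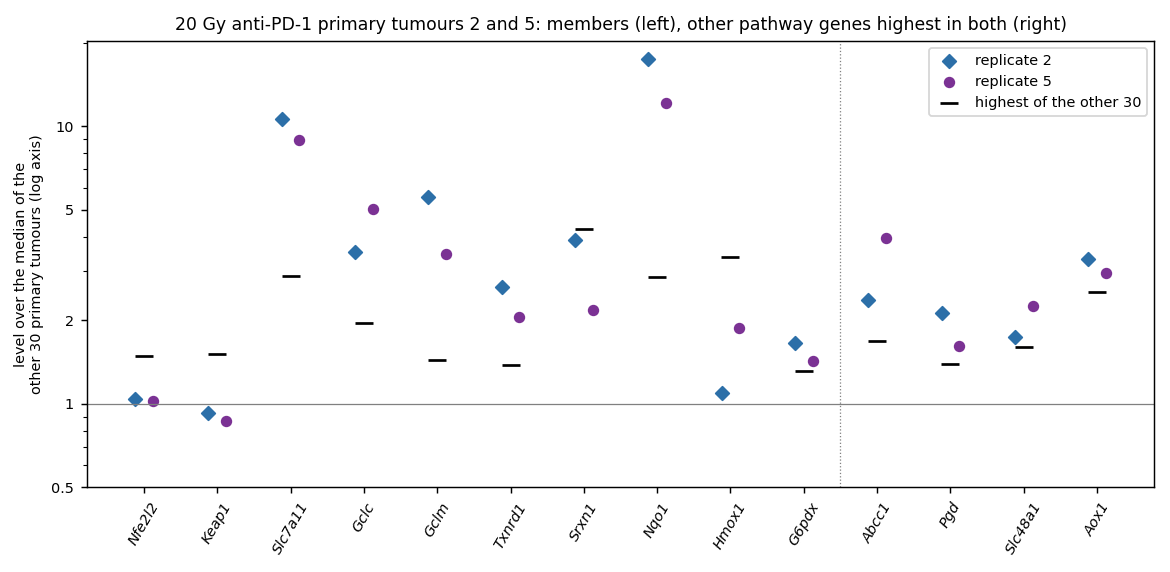
Level of each member, and of the 4 other pathway genes highest in both tumours, in replicates 2 and 5 of the 20 Gy anti-PD-1 primary group, divided by the median of the other 30 primary tumours, on a log axis. The black dash is the highest of the other 30; both symbols lie above it for Slc7a11, Gclc, Gclm, Txnrd1, Nqo1 and G6pdx.

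Set against the allografts, these 2 tumours reached or passed their levels for the glutathione genes. For Slc7a11, Gclc and Gclm both were above the highest of the 16 allografts, which had 60.7, 109.4 and 78.7 CPM. For Nqo1 both lay inside the allograft range of 34.6 to 193.1 CPM, where no other primary tumour was. Abcc1, Pgd, Slc48a1 and Aox1, also lower in untreated primary tumours than in allografts, were high in both as well. Of the remaining genes lower in untreated primary tumours, the 46 read, chosen by smallest p with members and pathway genes left out, had a mean log2(CPM + 0.5) of 1.94 and 1.99 in replicates 2 and 5. The other 6 tumours of the group had 1.40 to 2.54, and the 16 allografts 2.68 to 3.69. Library size was 37.5 and 51.4 M counts, against 34.7 to 44.2 M counts in the other 6. The macrophage markers summed to 1102 and 544.2 CPM (other 6, 860.8 to 2657 CPM) and the T cell markers to 33.2 and 4.22 CPM (other 6, 9.14 to 234.9 CPM), so replicate 5 was below the rest of its group in both lists. The sarcoma and mesenchymal markers, at 11830 and 9441 CPM, lay within the range of the other 6. The part of these differences in the members' levels was not tested.

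**Figure D4:**
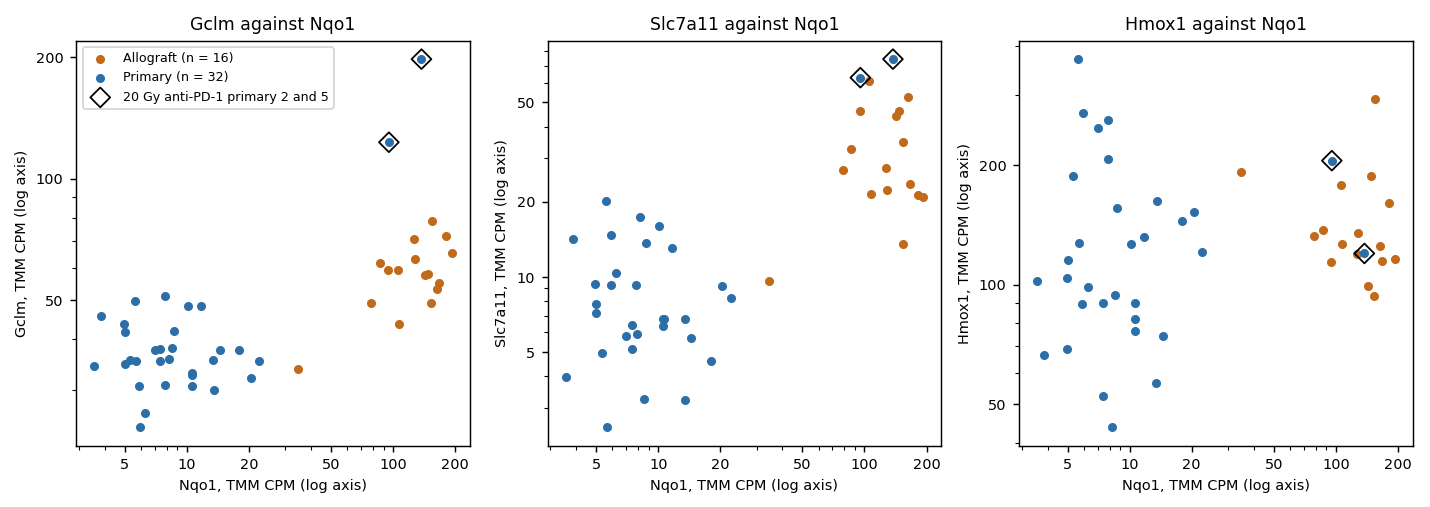
Gclm, Slc7a11 and Hmox1 against Nqo1 in 48 tumours, in CPM on log axes (allografts orange, n = 16; primary tumours blue, n = 32; replicates 2 and 5 of the 20 Gy anti-PD-1 primary group in diamonds). The diamonds lie among the allografts for Nqo1 and above them for Gclm and Slc7a11, and within the range of the other tumours for Hmox1.

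The comparisons that use the 20 Gy anti-PD-1 primary tumours carry these 2 tumours. Against 0 Gy with anti-PD-1, 20 Gy raised 1 of 9 members, where 6.06% of genes were higher, 1.86% were lower and 7.92% were called in either direction. That member was G6pdx, at 56.4 to 74.6 CPM (median 66.9) at 0 Gy and 73.1 to 116.6 CPM (median 88.4) at 20 Gy. Of the irradiated tumours, 6 of 8 were above every unirradiated one (log2 fold change 0.42, SE 0.11, adjusted p = 0.0174). Slc7a11, Gclc and Gclm fell just short, with adjusted p-values of 0.0510, 0.0546 and 0.0515. Without replicates 2 and 5, 0 members were called, where 11.4% of 18125 genes were, and G6pdx had a log2 fold change of 0.32 (adjusted p = 0.0533). Leaving out single tumours raised the count: 4 members (Slc7a11, Gclc, Gclm and G6pdx) were called without irradiated replicate 1, 3, 4 or 8, and 2 without irradiated replicate 6 or 7 or unirradiated replicate 7. In the same comparison 3 of 6 macrophage and 2 of 6 neutrophil and monocyte markers were higher and 1 of 6 sarcoma and mesenchymal markers was lower. Of 6 skeletal muscle markers 0 were called, with a median log2 fold change of 2.73. The part of any of these cells in the change of G6pdx was not tested. Ikbkg, on the other strand of the same locus, moved with G6pdx, with a log2 fold change of 0.39 (SE 0.10, adjusted p = 0.0176).

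Set against untreated tumours, 20 Gy with anti-PD-1 raised 5 of 9 members and lowered 0, where 8.78% of genes were higher, 4.98% were lower and 13.8% were called in either direction. The members' median log2 fold change was 0.46, against -0.01 over all genes. This comparison shares its 20 Gy tumours with the one above and its 0 Gy tumours with the isotype dose comparison. Slc7a11 rose most among those tested, from 2.51 to 14.2 CPM (median 5.14) to 3.97 to 74.4 CPM (median 12.6), with 4 of 8 treated tumours above every untreated one (log2 fold change 2.02, SE 0.49, adjusted p = 0.00629). Gclc (0.89, SE 0.30, adjusted p = 0.0433) and Gclm (0.85, SE 0.28, adjusted p = 0.0427) rose although 1 and 3 treated tumours lay below every untreated one.

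Hmox1 and G6pdx rose more evenly. Hmox1 went from 52.5 to 144.9 CPM (median 84.4) to 102.1 to 370.3 CPM (median 157.7), with 8 of 8 treated tumours above the untreated median (log2 fold change 1.0, SE 0.33, adjusted p = 0.0375). G6pdx went from 55.3 to 77.1 CPM (median 63.8) to 73.1 to 116.6 CPM (median 88.4), also with 8 of 8 above the untreated median (log2 fold change 0.46, SE 0.11, adjusted p = 0.00625). Txnrd1 (0.42, SE 0.19), Nfe2l2 (0.11, SE 0.13), Keap1 (0.12, SE 0.11) and Srxn1 (-0.03, SE 0.38) did not pass. Nqo1, not tested, had a log2 fold change of 1.95.

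Without replicates 2 and 5, which were left out together after the data were seen, 2 of 9 members were called, Hmox1 and G6pdx, where 17.4% of genes were. Hmox1 then had a log2 fold change of 1.09 (SE 0.35, adjusted p = 0.0317) and G6pdx 0.39 (SE 0.11, adjusted p = 0.0146). Slc7a11 then had 0.81 (SE 0.38, adjusted p = 0.140), Gclc 0.20 (SE 0.21, adjusted p = 0.560) and Gclm 0.05 (SE 0.14, adjusted p = 0.838). Nqo1 came to 0.10. Either tumour alone also decided the calls on Gclc and Gclm, since 3 members were called without replicate 2 and 3 without replicate 5, in both cases Slc7a11, Hmox1 and G6pdx. Leaving out other tumours mattered too: without untreated replicate 6 or 8, 2 were called, Slc7a11 and G6pdx. Without untreated replicate 3, 4, 5 or 7, or treated replicate 6, 3 were called, Slc7a11 and G6pdx with 1 other member.

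Of the other pathway genes in the comparison of 20 Gy with anti-PD-1 against untreated tumours, 7 of 41 rose and 1 fell. Of all genes 8.78% were higher and 4.98% lower. Mafk rose with a log2 fold change of 0.66 (SE 0.13), Ephx1 with 1.81 (SE 0.39) and Slc48a1 with 0.72 (SE 0.18), while Idh1 fell by 0.61 (SE 0.17) on the log2 scale. Mafk, Ephx1 and Slc48a1 kept their calls in all 25 alternatives run for them, the set without both high tumours included. With 20 Gy, macrophage markers (3 of 6) and neutrophil and monocyte markers (4 of 6) were higher as well, and 1 of 6 sarcoma and mesenchymal markers was lower. Of 6 skeletal muscle markers 0 were called, with a median log2 fold change of 2.84. The part of any of these cells in the rise of Hmox1 and of the other genes was not tested. Against 0 Gy with anti-PD-1, 6 of 41 rose and 0 fell, where 6.06% of all genes were higher and 1.86% lower, with Mafk (0.57, SE 0.13), Sqstm1, which encodes the KEAP1-binding autophagy receptor p62 (0.47, SE 0.12), and Fth1 (0.93, SE 0.25) having the smallest p among those that reached 5 CPM. Of the 6, Slc48a1 kept its call in 10 and Ephx1 in 13 of the 25 alternatives.

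Whether the members vary together from tumour to tumour was read within groups, on log2(CPM + 0.5) with each group's mean removed, for 45 pairs in each kind of tumour, 90 relations in all. Two-sided permutation tests shuffled tumours within groups 100000 times, and a pair passed where Pearson's r and Spearman's rho both had an adjusted p below 0.05 over the 90. The pairs with Nqo1 are not read in primary tumours, which leaves 36 pairs there. In the 32 primary tumours 12 of 36 pairs passed, with a median r of 0.27 over the 36, and in the 16 allografts 13 of 45 passed, with a median r of 0.61 over the 45. Hmox1 was in 0 of the passing pairs of either kind. All tumours share the scaling of their own library, and the members are not independent of each other.

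In primary tumours most of the passing pairs did not pass without the 2 high tumours. Gclm and Txnrd1 had r = 0.83 and rho = 0.67, and r = 0.71 without the 2 tumours farthest from the median of Gclm. Without replicates 2 and 5 the same pair had r = 0.66 and rho = 0.57 over 30 tumours. Of the 36 pairs, 3 then passed, again adjusted over 90 relations, while the median r was 0.26. Gclm with Txnrd1 and Nfe2l2 with G6pdx had passed over all 32 tumours too, and the other 10 of those 12 pairs no longer did. Values differed among the pairs that did not pass without the 2 tumours. Gclc with Gclm had r = 0.61 and rho = 0.46, and Slc7a11 with Txnrd1 had r = 0.11 and rho = 0.11. Nfe2l2 with Srxn1 passed only without the 2 tumours, its permutation p for rho going from 0.0622 to 0.0422 after adjustment.

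In allografts, Gclc and Txnrd1 had r = 0.94 and rho = 0.85 (permutation p = 0.00073, adjusted p = 0.0082 for r), and r = 0.78 without the 2 tumours farthest from the median of Gclc. Gclm and Txnrd1 had r = 0.91 and rho = 0.88, and r = 0.88 without the 2 farthest. Keap1, the inhibitor, took part in 4 of the 13 passing pairs, among them Slc7a11 (r = 0.87, rho = 0.90) and G6pdx (r = 0.84, rho = 0.89). For these, r was 0.77 and 0.88 without the 2 tumours farthest from the median of Keap1. Leaving out tumours by the other gene of a pair can give another value. Without replicate 2 of the 20 Gy anti-PD-1 group, the allograft with the low levels, 5 of 45 pairs passed, and without replicate 4 of the untreated group 3 passed. Without replicate 4 of the 20 Gy isotype group 7 passed, without replicate 3 of the 20 Gy anti-PD-1 group 8, and without replicate 2 of the 0 Gy anti-PD-1 group 20. The median r of the 45 pairs was 0.48 when the 2 farthest tumours were left out of each.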

How the data were processed

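RNA was measured in 48 tumours by stranded, poly(A)-selected bulk sequencing, per the labels' protocols. The authors deposited 1 table of whole-number counts per gene. Reads were trimmed with Trimmomatic 0.36, aligned with STAR to mm10 and counted with HTSeq, per the submitters' processing notes. The strand setting of the counting is not given in the sources used here, so overlapping genes (Keap1 and Gm16754, Gclm and Gm17494, G6pdx and Ikbkg) may share reads. G6pd2, a copy of G6pdx, had 10 counts in all. The table's own name calls it a first run, and depth here is that of this table. Symbols and coordinates came from GENCODE M21, which named 36796 of the 36854 genes.

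Counts were scaled by TMM and tested with edgeR 4.0.16 (filterByExpr, quasi-likelihood F test, R 4.3.3), with 1 fit per kind of tumour, a fit of 2 groups for the untreated comparison and 1 of all 48 tumours for the difference between kinds. P-values were adjusted over all genes tested, and a call is an adjusted p below 0.05. The standard error is the size of the log2 fold change divided by the square root of F. DESeq2 1.42.0, other size factors, no filter, other sample sets, covariates and leaving out each tumour were alternatives. The tests were checked on simulated data. Groups came from the labels, and replicate numbers follow the order of deposit and pair nothing.

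Members and lists were chosen with earlier results of these data known. Of the other pathway genes, the text names up to 3 per direction, ranked by p, from calls reaching 5 CPM in the higher group; Aox1, Pgd and Abcc1 were named after their values were seen. Sequences were searched with Python 3.11.15.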

Additional observations from a re-analysis of the deposited data

Results flagged for a closer look

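Single tumours stood far from the rest of their group in 7 of 80 combinations of member and group (a gap to the nearest tumour, over the group's range, above Dixon's 95% critical value). The 80 include Nqo1 in the 20 Gy primary groups, whose values chose the pathway, and none of the 7 is from there. For normally distributed values the rule marks about 1 in 20. Levels in CPM need not be so distributed and the combinations share tumours, so the 7 are a description. Each of the 7 was the highest of its group. Gclc was at 92.5 CPM in replicate 4 of the 20 Gy isotype allografts, where the other 3 were at 73.3 to 74.9 CPM. Txnrd1 was at 495.8 CPM in replicate 4 of the 0 Gy anti-PD-1 allografts, where the others were at 355.2 to 368.7 CPM. Gclc was at 58.7 CPM in replicate 8 of the 20 Gy isotype primary tumours, where the other 7 were at 24.0 to 33.6 CPM. Replicate 4 of the 0 Gy anti-PD-1 primary tumours was high for 2 members, with Srxn1 at 263.4 CPM (others 80.1 to 139.4) and Nqo1 at 22.4 CPM (others 5.0 to 11.7). Hmox1 was at 249.0 CPM in replicate 5 of that group (others 43.8 to 131.8) and at 370.3 CPM in replicate 6 of the 20 Gy anti-PD-1 primary tumours (others 102.1 to 205.5). The rule tests only the gap beside the highest or the lowest tumour, so it does not mark a group in which 2 tumours are high together.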

How the results depend on the processing

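No paired analysis was possible because the labels carry no replicate numbers that pair tumours across groups. No member changed direction under any alternative where it was called. The number of members called moved as follows. For 20 Gy with anti-PD-1 against untreated primary tumours, the 5 became 2 with no filter on low counts, 3 with Xist as a term, 3 with only the groups compared and 2 without both high tumours. Leaving out 1 tumour gave 2 to 5. For 20 Gy against 0 Gy with anti-PD-1 in primary tumours, the 1 became 4 with DESeq2, with its size factors in edgeR and with all 48 tumours, 2 with skeletal muscle markers as a term and 0 without both high tumours (1 to 4 leaving out 1 tumour). With isotype, the 0 became 1, Hmox1, with the identifier digit as a term (0 to 1 leaving out 1 tumour). For allografts given 20 Gy and anti-PD-1 against untreated allografts, the 0 became 1 with DESeq2 (0 to 1 leaving out 1 tumour). Between kinds of untreated tumours, 5 to 6 were called over these alternatives. The cause of these shifts was not tested, beyond the smaller number of tumours or of genes in each fit. Pairs that vary together numbered 3 to 20 in allografts and 8 to 15 in primary tumours leaving out 1 tumour, and 3 without both high tumours.

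Over all genes, the counts called moved more: with 20 Gy in isotype allografts from 912 to between 196, with the identifier digit as a term, and 1458 with DESeq2; with anti-PD-1 from 703 to between 1, with only the groups compared, and 1552; with both treatments from 1714 to between 851 and 2518. In primary tumours they were 2084 to 3532 (2575), 822 to 2311 (1407) and 1384 to 3636 (2446) in the same order, and between kinds 1199 to 4840 (1738). The difference in dose effect between kinds gave 0 to 4 genes (1). Leaving out 1 tumour gave 184 to 1415 genes for dose within allografts under 1 antibody and 732 to 2187 between kinds. With 4 allografts a group, changes of the size seen in Keap1 or Hmox1 may go uncalled, and the standard error differed between members.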

Other observations

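The genes whose levels over the 48 tumours were most like those of 3 members were ranked by the root mean square difference of log2(CPM + 0.5), each gene centred on its mean, among genes averaging 5 CPM or more and with at least 0.5 times the member's standard deviation. The ranking for Nqo1 is a description, since it includes the 20 Gy primary tumours whose values chose that gene. For Nqo1, among 1133 genes, they were Pthlh, which encodes parathyroid hormone-related protein, with 0.93, then Acot1, Ackr4, Fam110c and Slc22a23 with 1.05 to 1.17. Both Nqo1 and Pthlh vary widely, with standard deviations of 1.95 and 2.10 on this scale. For Slc7a11, among 2797 genes, the nearest was another member, Gclc, with 0.69, then Abcc4, Ereg, Slc48a1 and Aig1 with 0.77 to 0.79. For Hmox1, among 7516 genes, they were Rnf128, Plin2, the lipid droplet protein gene, C5ar1, a complement receptor gene of myeloid cells, Map2k1 and Ftl1-ps1 with 0.52 to 0.54.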
